A study of Mus musculus with 10 samples.

Results

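The 10 genes described here encode contractile and cytoskeletal proteins of smooth muscle and were chosen by name for that function, as a measure of how much muscle layer each piece of jejunum held. They are Acta2, Actg2, Myh11, Tagln, Des, Cnn1, Lmod1, Smtn, Mylk and Synm, 10 of the 55414 genes in the count files, and all 10 passed the filter on low counts. Their RNA was counted in 10 jejunum libraries from male C57BL/6J mice whose genotype is given as RetSat flox/flox. In the 5 control libraries the villin-Cre-ERT2 transgene was absent, and in the 5 RetSat ko libraries it was present. Animals of both genotypes received tamoxifen by intraperitoneal injection (5 days) and then, for 14 weeks, a high-fat diet (60% of energy). The villin promoter drives the Cre recombinase in the epithelium, so the deletion is directed at epithelial cells and not at muscle. The controls lack the recombinase itself, so loss of RetSat and presence of Cre cannot be told apart. Ages at sampling are not given in the sources used here.

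The wall of the jejunum holds a thin muscle sheet under the mucosa and, outside it, a circular and a longitudinal muscle layer. In these cells calcium activates myosin light chain kinase, which phosphorylates the regulatory light chain of myosin and lets the smooth muscle myosin heavy chain pull on actin filaments. Actin-binding proteins tune that pull, intermediate filaments carry the force across the cell, and serum response factor with its partner myocardin switches on most of the genes involved. In whole-tissue RNA, fewer muscle cells and less RNA per muscle cell cannot be told apart.

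The labels held for the deleted gene: Retsat lay at 340 to 576 CPM (counts per 1000000 counts of the TMM-adjusted library) in control and at 15.4 to 33.4 CPM in RetSat ko. Total counts were 102844680 to 128730695 per library. Epithelial markers were high in every library, with 2137 to 3517 CPM of Vil1 (villin). Of 18654 genes tested, 6 (0.0322%) passed an adjusted p of 0.05 between the genotypes in edgeR's quasi-likelihood test, 0.0214% higher and 0.0107% lower in RetSat ko. None of the 10 smooth muscle genes was among them. In no library was a member at 0; the smallest count was 434 (Lmod1 in control 3).

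The main pattern in these genes was a difference between libraries of the same genotype. Control 3 had the lowest level of all 10 genes among all 10 libraries. The summed level of the 10 genes was 1159 CPM in control 1, 1129 in control 2, 557 in control 3, 1134 in control 4 and 923 in control 5. In RetSat ko 1 to 5 it was 921, 1214, 1334, 949 and 833 CPM. Mylk, the most abundant of the 10 in CPM, made up 39.3% to 65.2% of this sum. By the sum control 3 was at 51.3% of the other 4 controls, and by the median of the 10 genes at 32.2%. Every other library held more than control 3, and the ranges of the genotypes overlapped. Averaged over the 5 libraries of a genotype, the sum was 980 ± 255 CPM (SD) for control and 1050 ± 213 CPM (SD) for RetSat ko, a ratio of 1.07. Without control 3 the other 4 controls had a mean of 1086 ± 110 CPM and the ratio was 0.967.

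Of the actins, Acta2 encodes smooth muscle alpha actin and Actg2 smooth muscle gamma actin, the form typical of gut muscle. Acta2 (ENSMUSG00000035783.10, chromosome 19, 34218490 to 34232990, minus strand, GRCm39) was at 144, 132, 42.4, 119 and 107 CPM in control 1 to 5 and at 98.6, 149, 176, 128 and 107 CPM in RetSat ko 1 to 5. Control 3 lay far under the other 9 libraries, and RetSat ko 3 was the highest. With 5 libraries in each group, Acta2 averaged 109 ± 39.8 CPM (SD) for control and 132 ± 31.5 CPM (SD) for RetSat ko. Its log2 fold change was 0.27 ± 0.30 (SE) with a 95% interval from -0.41 to 0.95 (edgeR adjusted p = 0.747). Actg2 (ENSMUSG00000059430.15, chromosome 6, 83489887 to 83513247, minus strand, GRCm39), on the chromosome that also carries Retsat, was at 68.2, 64.0, 19.3, 67.3 and 56.2 CPM in control and at 55.2, 77.4, 89.5, 57.6 and 50.2 CPM in RetSat ko. The 4 controls other than control 3 lay inside the range of the RetSat ko libraries. The log2 fold change was 0.26 ± 0.33 with a 95% interval from -0.47 to 1.00 (edgeR adjusted p = 0.773).

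Actins are near-copies of each other, so shared reads were considered. Of the 50-base words in the longest coding transcript of Acta2, 0.352% also occurred in transcripts of other genes, among them Actg1, and 0% of those of Actg2 did. At 100 bases both shares were 0%. The cytoplasmic actins Actb and Actg1, present in all cells, were at 4207 to 5289 and 561 to 797 CPM, and control 3 had 110% and 102% of the mean of the other 4 controls. The skeletal actin gene Acta1 did not follow the smooth muscle actins: it was highest in control 3 (14.5 CPM). The other controls had 3.69 to 8.91 CPM of Acta1, and the RetSat ko libraries 2.24 to 9.78 CPM. The cardiac actin gene Actc1 had at most 14 counts in a library.

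The bases before the start sites of the members were searched for the CArG box, the motif that serum response factor binds. Its part in the shared variation between libraries was not tested. RefSeq promoter windows (GRCm38.p6, 250 bases before to 50 after the start) matched 7 of the 10 genes. The box in its exact form (CC, 6 letters A or T, GG, which reads alike on both strands) was in 0 of these 7 windows and in 1.63% of all 32851 windows. With 1 other letter allowed among the 6, a form chosen after the exact one had no match, it was in 2 of 7 windows against 9.98% of all windows. Acta2 held 2 such boxes, starting 84 and 34 bases before the start site, and Synm held 1, starting 239 bases before it. Des, Cnn1, Lmod1, Smtn and Mylk held none. Of these, Des, Cnn1 and Lmod1 varied widely, their highest library having 4.6, 4.8 and 4.1 times the lowest, against 1.4 for Mylk. The 250 bases before the start are shown for Acta2, with the most boxes, and for Mylk, which varied least and had none. Boxes are in capitals.
Acta2 (chr19:34255374-34255623, strand -): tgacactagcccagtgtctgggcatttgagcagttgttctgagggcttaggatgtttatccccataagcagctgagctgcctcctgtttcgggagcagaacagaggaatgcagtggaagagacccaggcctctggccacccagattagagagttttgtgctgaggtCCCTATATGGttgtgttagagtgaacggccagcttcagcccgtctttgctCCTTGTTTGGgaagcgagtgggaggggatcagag
Mylk (chr16:34784700-34784949, strand +): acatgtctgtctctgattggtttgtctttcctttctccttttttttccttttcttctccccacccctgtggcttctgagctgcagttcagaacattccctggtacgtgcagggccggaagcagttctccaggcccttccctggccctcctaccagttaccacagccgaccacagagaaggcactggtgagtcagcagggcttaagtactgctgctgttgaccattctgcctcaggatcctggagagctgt
A match describes these letters only, and a window without one says nothing on more distant sites or on other start sites of the same gene. Only the window listed for each gene was searched. Which form of the Mylk transcript its window precedes was not determined.

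The motor protein of the family, Myh11, the smooth muscle myosin heavy chain (ENSMUSG00000018830.11, chromosome 16, 14012399 to 14109236, minus strand), had the widest spread of the 10 genes. It was at 175, 189, 45.4, 188 and 134 CPM in control and at 125, 209, 223.5, 136 and 117 CPM in RetSat ko. Control 3 held 26.5% of the mean of the other 4 controls, the smallest share among the 10 genes, and the highest library had 4.92 times the lowest. Without control 3 that ratio was 1.91. The log2 fold change was 0.15 ± 0.37 (SE), with a 95% interval from -0.69 to 0.99 (edgeR adjusted p = 0.894).

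Mylk, the gene of myosin light chain kinase, which switches that motor on (ENSMUSG00000022836.12, chromosome 16, 34565580 to 34822790, plus strand), varied least of the 10 genes between libraries. Smtn was next. The gene also gives a long form of the kinase that is made in non-muscle cells, epithelium included, and counts per gene do not separate the forms. Mylk was at 512, 491, 363, 492 and 418 CPM in control and at 429, 482, 524, 417 and 377 CPM in RetSat ko. Control 3 was again the lowest library, but at 76.0% of the mean of the other 4 controls, and RetSat ko 5 lay close above it. The highest library had 1.44 times the lowest. The log2 fold change was -0.03 ± 0.12 with a 95% interval from -0.29 to 0.22 (edgeR adjusted p = 0.935), the narrowest interval of the 10 genes.

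The actin-binding members repeated the pattern of the actins, Smtn less strongly than the others. Cnn1, calponin, which holds back the myosin motor (ENSMUSG00000001349.6, chromosome 9, 22010512 to 22020926, plus strand), was at 38.3, 37.7, 10.5, 37.8 and 32.5 CPM in control and at 34.3, 46.9, 49.8, 31.4 and 26.6 CPM in RetSat ko. The 4 other controls lay within 6 CPM of each other, and control 3 stood at 28.6% of their mean. Lmod1, leiomodin, which starts new actin filaments (ENSMUSG00000048096.8, chromosome 1, 135252545 to 135295803, plus strand), was at 4.06 CPM in control 3, 11.4 to 14.99 CPM in the other controls and 9.22 to 16.6 CPM in RetSat ko. Tagln, transgelin or SM22 alpha, an actin cross-linker (ENSMUSG00000032085.6, chromosome 9, 45840917 to 45847356, minus strand), was at 4.73 CPM in control 3, 11.2 to 12.8 CPM in the other controls and 9.91 to 17.8 CPM in RetSat ko. Smtn, smoothelin (ENSMUSG00000020439.18, chromosome 11, 3467523 to 3490612, minus strand), moved less. It was at 17.9 CPM in control 3, 63.5% of the mean of the other controls. These had 26.8 to 29.3 CPM, and the RetSat ko libraries had 24.9 to 34.7 CPM. For each of these 4 genes control 3 was the lowest library, and the other 4 controls lay within the RetSat ko range. Their log2 fold changes were 0.27 ± 0.34 for Cnn1, 0.11 ± 0.32 for Lmod1, 0.30 ± 0.27 for Tagln and 0.18 ± 0.13 for Smtn (SE), with edgeR adjusted p from 0.612 to 0.909.

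Both intermediate filament members were low in control 3 as well. Des, desmin, which links the force-bearing bodies inside the muscle cell (ENSMUSG00000026208.10, chromosome 1, 75336973 to 75345223, plus strand), was at 123, 126, 35.4, 142 and 103 CPM in control and at 107, 148, 162, 95.4 and 85.0 CPM in RetSat ko. Control 3 was at 28.6% of the mean of the other 4 controls, which overlapped the RetSat ko libraries. Synm, synemin, a partner of desmin (ENSMUSG00000030554.17, chromosome 7, 67379908 to 67409490, minus strand), was at 41.8, 34.9, 14.1, 33.8 and 22.8 CPM in control and at 26.2, 39.7, 40.3, 31.0 and 24.2 CPM in RetSat ko. Its highest library was control 1, whereas the other 9 genes were highest in RetSat ko 3. The log2 fold changes were 0.17 ± 0.35 for Des and 0.13 ± 0.28 for Synm (SE), with edgeR adjusted p of 0.871 and 0.878.

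**Figure D1:**
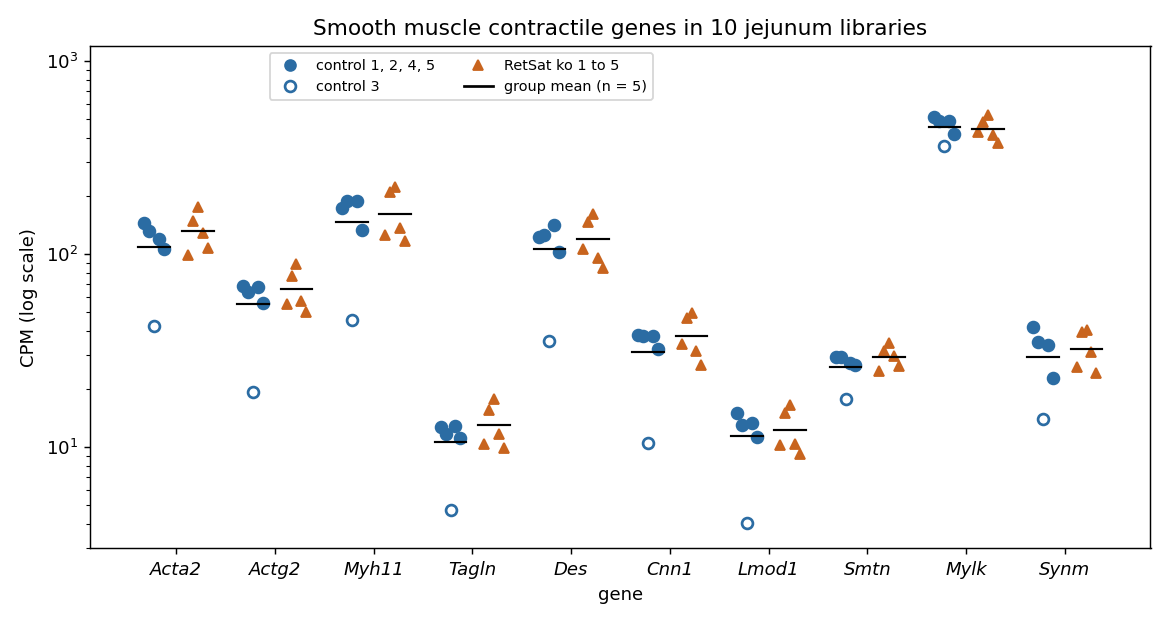
CPM on a log axis for each of the 10 genes, with a point per library (circles for control, the open circle for control 3, triangles for RetSat ko) and a line at each group mean. The open circle is the lowest point of every gene, down to 4.06 CPM for Lmod1, while the other control and the RetSat ko points overlap.

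Counting without strand limits some of these levels. Of the 1988 exon bases of Tagln, 1241 (62.4%) also belong to exons of Gm48529, a gene on the opposite strand, and reads there cannot be assigned to either with certainty. If such reads were left out of both genes, the counts of Tagln are too low. Its RPKM would be too low as well, since it divides by all 1988 bases. Gm48529 itself had 186 to 293 counts. For Smtn the shared part was 16.3% of its exon bases (Gm11946), and for Des, Mylk and Synm no single other gene shared more than 5.86%. Acta2, Actg2, Myh11, Cnn1 and Lmod1 had no overlapping exon.

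Per kilobase of exon (RPKM), the mean levels over the 10 libraries ran from 54.9 for Acta2 through 40 for Mylk, 38.9 for Actg2, 29.99 for Des, 20.3 for Myh11 and 12.6 for Cnn1 to 6.35 for Smtn, 5.97 for Tagln, 3.89 for Synm and 3.00 for Lmod1. Within libraries, the steps from Actg2 to Des, from Des to Myh11, from Myh11 to Cnn1 and from Tagln to Synm held in 10 of 10 libraries. The step from Acta2 to Mylk, from Cnn1 to Smtn and from Synm to Lmod1 held in 9 of 10. Mylk stood above Actg2 in 8 of 10 libraries and Smtn above Tagln in 7 of 10, so neither pair is ordered by these data. The overlap described for Tagln may make its level, and so its place, too low.

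The proportions among the genes depended on whether Mylk was counted. Of the summed CPM of all 10 genes, Mylk made up 65.2% in control 3 and 39.3% to 46.6% in the other libraries. Acta2 made up 7.61% in control 3 against 10.5% to 13.5%, and Actg2 3.46% against 5.67% to 6.71%. Mylk was thus less low in control 3 than these genes. Within the sum of the 8 genes other than Mylk and Smtn, left out after it was seen that they differed least between libraries, the shares were closer. Actg2 made up 10.5% to 11.8% in the 10 libraries. Acta2 made up 19.4% to 25.5%, Myh11 25.8% to 31.0%, Des 19.0% to 23.2% and Cnn1 5.96% to 7.34%. Relative to its lowest share, Synm varied most, from 4.76% to 7.999%. Control 3 was inside the span of the other libraries for Acta2 (24.1%), Actg2 (10.96%), Des (20.1%) and Lmod1 (2.31%). It lay above every other library for Tagln (2.69%) and Synm (7.999%) and below every other library for Myh11 (25.8%) and Cnn1 (5.96%). As a description of how the genes varied together, the Pearson r between the log2 CPM of a gene and the mean of the other 9 members lay between 0.847 (Mylk) and 0.994 (Actg2) over 10 libraries. Over the 9 libraries without control 3 it lay between 0.835 (Smtn) and 0.985 (Actg2). The points share each library's depth and scaling factor.

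**Figure D2:**
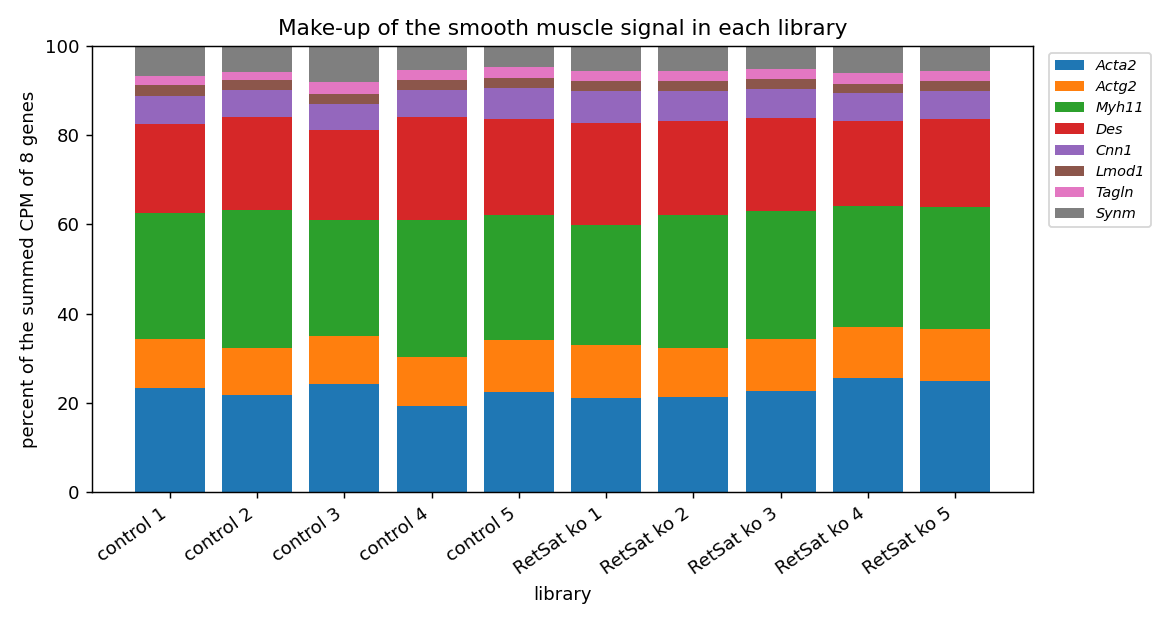
Stacked bars of the percent that each of 8 smooth muscle genes contributes to their summed CPM in each of the 10 libraries, so that every bar adds to 100%. Within these 8 genes, chosen after their values were seen, Actg2 takes 10.5% to 11.8%; of all 10 genes it takes 3.46% to 6.71%, with the lowest share in control 3.

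RetSat ko libraries differed among themselves in the same concerted way, on a smaller scale. RetSat ko 3 was the highest of the 5 for all 10 genes, RetSat ko 5 was the lowest for 8 and RetSat ko 1 for Acta2 and Smtn. Across the 9 libraries without control 3, the highest level was 1.39 times the lowest for Mylk and Smtn and 1.78 to 1.91 times for the other 8 genes.

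Between the genotypes, none of the 10 genes was called. In edgeR their adjusted p ran from 0.612 to 0.935, and 0 of 10 had an unadjusted p under 0.05, which 12.2% of all genes tested had. The log2 fold change was positive for 9 genes and negative for Mylk, with a median of 0.17, against 0.02 over all 18654 genes tested. DESeq2, which called 0.659% of all genes, and limma-voom, which called 0.0322%, or 0.0643% with sample weights, also called 0 of 10. So did edgeR without a filter on low counts (0.0270% of all genes called), with a filter of 1 CPM (0.0303%), without robust estimation (0.0375%) and with the replicate number as a block (0.0214%).

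Leaving out a library changed the direction of several genes but called none of them. Without control 3, 5 genes were positive and 5 negative, with a median of 0.00015 (0 of 10 called, against 0.0316% of all genes). Leaving out control 1, 2, 4 or 5 called 0.0316%, 0.0370%, 0.0317% and 0.0369% of all genes. Leaving out RetSat ko 1 to 5 in turn called 4.45%, 0.0265%, 0.0265%, 0.0476% and 0.0265%. No member was among those called in any of these fits. Without the 3 libraries richest in B cell transcripts (control 4, RetSat ko 2 and RetSat ko 3) the median was 0.0092 (0.0211% of all genes called). Without the 4 richest in acinar transcripts (control 4 and 5, RetSat ko 1 and 2) it was 0.26 (0.0264%). The 95% intervals with all 10 libraries differed in width between the genes, from -0.29 to 0.22 for Mylk and -0.12 to 0.47 for Smtn to -0.69 to 0.99 for Myh11.

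**Figure D3:**
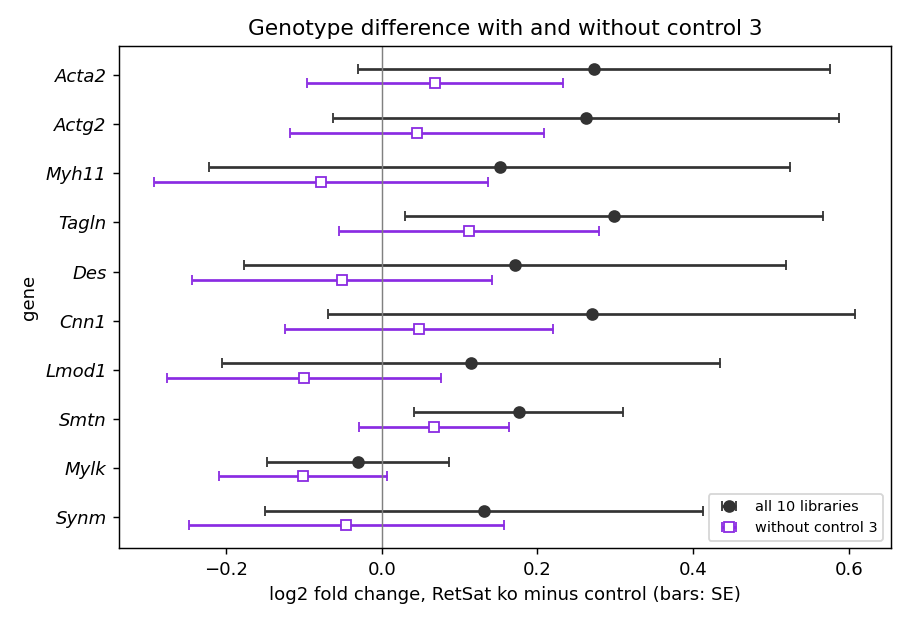
Log2 fold change of each gene, RetSat ko minus control, with bars of 1 SE, from edgeR fits with all 10 libraries (filled circles) and without control 3 (open squares). The squares lie closer to 0 than the circles for every gene but Mylk, where the value goes from -0.03 to -0.10, and Myh11, Des, Lmod1 and Synm change sign.

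Other genes of the muscle machinery, from lists set up for this comparison, gave 0 calls between the genotypes as well. In the list of other contractile and cytoskeletal genes 18 of 19 were tested, and 0 were called, with a median log2 fold change of 0.15. Vcl, vinculin, which anchors actin at the membrane, had the smallest p, with 24.3 to 30.3 CPM in RetSat ko and 31.5 to 45.3 CPM in control. These ranges do not overlap, which held for 2.31% of all genes tested, and the log2 fold change was -0.39 ± 0.11 (edgeR adjusted p = 0.291). Vcl was highest in control 3, the opposite of the 10 members. Cnn3, Actn1 and Myl6 had the next smallest p, with log2 fold changes of 0.21, 0.16 and 0.11. In control 3, 9 of the 18 were under 50% of the mean of the other controls. Among them were Myl9, the regulatory light chain (31.3%), Tpm2, a tropomyosin (34.7%), and Flna, filamin A (37.1%), all 3 chosen after their values were seen. Tpm1, a tropomyosin gene with forms in many cell types and also chosen after its values were seen, was at 95.9%.

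Genes of the membrane anchor, of excitation and of transcriptional control were likewise not called (0 of 20, 0 of 20 and 0 of 13 tested), with medians of 0.13, 0.08 and 0.05. Of the anchor genes, Sgca, a sarcoglycan with 4 to 26 counts per library, had -1.30 ± 0.45, Tln1, talin, -0.21 ± 0.078 and Nexn, nexilin, 0.45 ± 0.19 (edgeR adjusted p from 0.321 to 0.368). Of the excitation genes, the calcium release channel Itpr1 had -0.28 ± 0.13 (edgeR adjusted p = 0.426). Without RetSat ko 1, Itpr1 was called lower (-0.42 ± 0.088, edgeR adjusted p = 0.0336) in a fit that called 4.45% of all genes. Itpr1 was at 121 to 157 CPM in control and did not drop in control 3 (104% of the other controls). Of the 20 tested excitation genes, 8 were under 50% in control 3, with a median of 57.9%. The lowest was the ryanodine receptor Ryr2 (9.87%, with 14 to 188 counts per library). Next were the potassium channel Kcnma1 (24.9%, 50 to 335 counts), the muscarinic receptor Chrm2 (30.04%) and the L-type calcium channel Cacna1c (33.1%). Others were not low there, such as the muscarinic receptor Chrm3 (98.2%), the calcium pump Atp2a2 (117%) and the phosphodiesterase Pde5a (119%), and the purine receptor channel P2rx1 was at 70.7% (all but Atp2a2 chosen after their values were seen). Pln, phospholamban, Rock2 and Atp2a2 had log2 fold changes of 0.52, -0.27 and -0.15.

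By list median, the transcriptional regulators were less low in control 3 than the members, at 86.9% of the mean of the other controls. Single regulators ran from 50.7% to 123%, the highest being Gata6, an abundant gene at 125 to 171 CPM in control. How much of each regulator's RNA came from muscle was not measured, so the median does not describe regulators within muscle cells. Srf, serum response factor, which many cell types make, was at 31.2 CPM in control 3 and at 34.9 to 37.7 CPM in the other controls (85.6% of their mean). Myocd, myocardin, its partner in muscle and chosen after its values were seen, was at 0.393 CPM there and at 0.478 to 0.783 CPM in the other controls (62.3%). In RetSat ko it was at 0.353 to 0.935 CPM, with RetSat ko 1 under control 3. None of the 13 tested regulators was under 50% in control 3. Between the genotypes Gata6 had -0.24 ± 0.10, Srf 0.11 ± 0.066, Mrtfb -0.12 ± 0.081 and Foxf2 0.18 ± 0.12 (SE, edgeR adjusted p from 0.378 to 0.569).

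Markers of other cell types were read in control 3 in the same way. Over all 13200 genes of at least 1 CPM the median of control 3 was 100% of the mean of the other 4 controls, and 3.73% of genes were under 50%. Of the 10 smooth muscle genes, 8 were under 50%. Pericyte and vascular muscle markers were at 61.7 CPM in sum in control 3, 115 to 152 CPM in the other controls and 108 to 172 CPM in RetSat ko, most of it Rgs5 (34.1 CPM in control 3), and 2 of 7 were under 50%. Of 10 markers of enteric neurons and glia, cells found largely between the muscle layers, 6 were under 50%. Among these were Sox10 at 22.5% (6 to 54 counts per library) and Elavl4 at 36.3% (30 to 148 counts). Ret, the most abundant of the 10, was at 161% (11.02 CPM, with 5.92 to 7.83 CPM in the other controls). The sum of the 10, most of it Ret in control 3, was 18.3 CPM there, 17.9 to 23.6 CPM in the other controls and 19.1 to 24.5 CPM in RetSat ko. The sum thus hides that control 3 was the lowest control for 9 of the 10 markers. Of 5 mesothelial markers, 4 were under 50% (Msln at 10.8%), but control 5 and RetSat ko 1 were also low in Msln, at 0.570 and 0.490 CPM. Krt19, the most abundant of the 5 with a mean of 1108 CPM over the 10 libraries, was at 103%. Interstitial cells of Cajal, the pacemakers of gut muscle, had 0 of 4 markers under 50%, with Kit at 85.7% and Ano1 at 60.03%.

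By list medians, markers of the mucosa and submucosa were less low in control 3 than the 10 members. Fibroblast and matrix markers were split, from 42.2% to 227% with a median of 79.5%, and 1 of 8 was under 50%. Dcn (51.7%) and Thy1 (52.8%), both named after their values were seen, lay just above that limit. Col3a1, the most abundant, was at 94.1%. No endothelial marker of 5 was under 50% (85.8% to 136%), and the 8 epithelial markers were at 102% (Epcam) to 174% (Fabp2). These 8 summed to 26510 CPM in control 3, to between 18150 and 21410 CPM in the other controls and to between 16050 and 22530 CPM in RetSat ko. Whether these cell types have a part in the low muscle values of control 3 was not tested. Markers of pancreas, B cells and fat also varied between libraries. Pancreatic acinar markers summed to 0.262 to 192 CPM in control and 0.707 to 2172 CPM in RetSat ko (Cela2a and Cel among those at 0 in at least 1 library). B cell markers summed to 3.82 to 45.5 CPM and 5.77 to 108 CPM (Fcer2a among those at 0 in at least 1 library). Control 3 had the smallest sum of both, but control 1 and control 2, with high muscle levels, were close to it, with 1.02 and 0.438 CPM of acinar and 4.28 and 3.83 CPM of B cell markers. Adipocyte markers went the other way: of 6, 0 were under 50% in control 3, with a median of 965% of the other controls. Adipoq (adiponectin) was at 2.57 CPM there and at 0 to 0.876 CPM in the other controls. It was higher still in RetSat ko 3, 4 and 5, at 3.59, 5.07 and 6.58 CPM, and Plin1 had the same order, with 2.48 CPM in control 3 and 3.47, 4.43 and 6.59 CPM in these libraries. RetSat ko 3 was thus above control 3 in both genes and also the library with the highest muscle sum. The sum of the 6 markers, most of it Cidec, was 242 CPM in control 3, 128 to 229 CPM in the other controls and 121 to 220 CPM in RetSat ko (Adipoq and Retn among those at 0 in at least 1 library). The part of these markers in the muscle values was not tested.

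**Figure D4:**
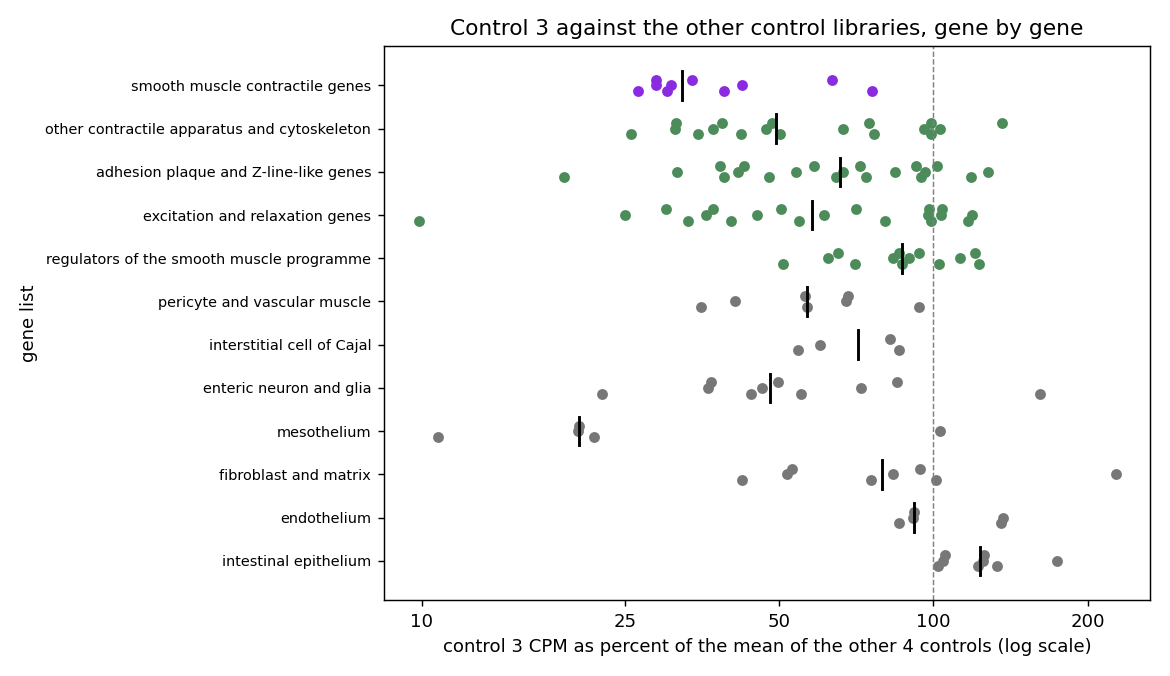
CPM in control 3 as percent of the mean of the other 4 control libraries, on a log axis, with a point per tested gene, a row per list (violet for the 10 smooth muscle genes, green for other muscle-related lists, grey for markers of other cell types) and a black line at each median. Smooth muscle genes have a median of 32.2%, against 124% for intestinal epithelium and 91.5% for endothelium.

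Outside these lists, the 5 genes of at least 5 CPM whose levels over the 10 libraries were most like the mean of the 10 members were Rbpms, an RNA-binding protein (Pearson r = 0.996), Slc24a3, a sodium, potassium and calcium exchanger (0.988), Flnc, filamin C (0.988), Jph2, junctophilin (0.987), and Grem1, a BMP antagonist (0.978). Without control 3 the values over 9 libraries were 0.988, 0.954, 0.945, 0.939 and 0.897. All 5 were low in control 3, at 25.1% to 46.5% of the mean of the other 4 controls. They were picked by r over libraries that include control 3, so low values there follow from the choice.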

How the data were processed

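Jejunal RNA of 5 control and 5 RetSat ko samples was sequenced. Per the labels' protocols, extraction used the RNeasy kit, DNA was digested, and NEBNext Ultra II reagents served for library preparation. The submitters' processing notes name Trimmomatic, STAR and the build GRCm39. The authors deposited raw counts of reads per gene, made with featureCounts 2.0.1 over exons of GENCODE mouse M28, per the file headers, with no option for strand or read pairs. Whether each library is a separate animal is not stated outright, so p-values cover the spread among these samples, which may be technical.

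Symbols were matched by identifier for 52081 of 55414 genes (94.0%). Counts were filtered (filterByExpr), scaled (TMM) and compared between genotypes by the robust quasi-likelihood test of edgeR 4.0.16 (R 4.3.3), with p-values adjusted by Benjamini-Hochberg over the 18654 genes tested (threshold 0.05). SE is the log2 fold change over the root of the F statistic. RPKM is CPM per 1000 bases of the deposited exon length. Likeness is Pearson's r of log2 CPM (prior count 2). Over 45 library pairs the smallest chi-square per degree of freedom was 37.8, so none was a duplicate. Steps were tested on simulated data. Same-numbered samples did not deviate together, so the numbers were not used as pairs. Alternatives used other factors and filters, DESeq2 1.42.0, limma 3.58.1 (voom), a replicate block and fewer libraries. Those without acinar-rich or B cell-rich libraries, and the comparisons of control 3, were chosen after seeing the data.

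Members and lists were chosen with earlier results of these data known. Named genes are the members, Retsat and Esr1, the actin paralogues, up to 4 genes of each list with the smallest p, the most abundant marker and the 5 genes most like the members. Some are left out for length or are not reported here, and genes outside the rule are marked in the text, Epcam, printed as the lowest of its range, excepted. Esr1 was at 0.496 to 0.686 CPM in control and 33.3 to 45.8 CPM in RetSat ko, and Cre-ERT2 carries a part of this receptor.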

Additional observations from a re-analysis of the deposited data

Results flagged for a closer look

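Within the 5 controls, control 3 stood apart from the others by more than 0.71 of the group's range for 4 of the 10 genes. Actg2 was at 19.3 CPM there, with the next control at 56.2 CPM. Tagln was at 4.73 CPM against 11.2 CPM, Cnn1 at 10.5 CPM against 32.5 CPM and Smtn at 17.9 CPM against 26.8 CPM. For the other 6 genes and the summed level control 3 was also the lowest control, but the gap was a smaller part of the range. The RetSat ko group had no such value. Chance alone marks about 1 in 20 groups, 22 groups were looked at, and the 10 genes vary together, so the 4 values are not independent of each other.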

How the results depend on the processing

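In each of the 22 fits run, 0 of the 10 members were called. The number of genes called over all, 6, was 123 with DESeq2, 12 with limma-voom with sample weights and 846 without RetSat ko 1 (range without a single library 5 to 846), and 4 with the replicate block. With the replicate block the median of the members was 0.22, and the block changed no call of a member. Deviations of same-numbered samples correlated at -0.149 to 0.002, and 0 of 5 RetSat ko samples matched their own number best. The median log2 fold change of the members, 0.17, was 0.27 with limma-voom, 0.0092 without the B cell-rich libraries, and 0.00015 (without control 3) to 0.28 (without control 4) when a single library was left out. Of 210 values of single members in other fits, 11 had the other sign. Without the B cell-rich libraries these were Myh11 (-0.11), Des (-0.024), Lmod1 (-0.13) and Synm (-0.071). Without a single library the values ran from -0.078 to 0.26 for Myh11, from -0.051 to 0.30 for Des, from -0.10 to 0.23 for Lmod1, from -0.045 to 0.29 for Synm and from -0.10 to 0.024 for Mylk. The cause was not tested. The summed level in control 3, 51.3% of the other controls, was 40.2% as summed RPKM, where Mylk, the longest gene, weighs less. The ratio of genotype means of the summed level ran from 0.967 to 1.13 without a single library. Of the other lists of muscle machinery, 0 members were called in any planned fit but that without RetSat ko 1, which called 1 excitation gene (range 0 to 1). Of the cell type markers, Plin4 of the adipocyte list was called higher in RetSat ko in that fit. Its log2 fold change was 1.31 ± 0.28 (SE, edgeR adjusted p = 0.0353), where 4.45% of all genes were called.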
